A study of Sus scrofa and Bos taurus with 31 samples.

Results

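Open chromatin of the pig cerebral cortex was compared with that of the pig hypothalamus, using peaks of an assay for transposase-accessible chromatin (ATAC-seq) in which a transposase inserts adapters where DNA is free of nucleosomes. Each tissue was represented by 2 libraries, 1 from each of the animals P348 and P350, which by the study's methods were castrated male Yorkshire littermates slaughtered when sexually mature, with no treatment given in the labels for either tissue. Peaks of the 4 libraries that shared at least 1 bp were merged into 274327 regions. Of these, 31778 regions held a peak of both cortex libraries and none of the hypothalamus (cortex-only regions, 11.6% of all regions), and 8590 held a peak of both hypothalamus libraries and none of the cortex (hypothalamus-only regions, 3.13%). A further 49132 regions were open in all 4 libraries. The nuclei were taken from whole tissue, so a site open in few nuclei and a site weakly open in many cannot be told apart. Because the lists themselves define the sets, the number and strength of the regions in each set are descriptions and carry no test.

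The cerebral cortex is a layered sheet dominated by glutamatergic projection neurons, together with inhibitory interneurons and glia, and its projection neurons are specified by transcription factors such as TBR1 and NEUROD6. The hypothalamus is a set of small nuclei that control hunger, growth, stress and reproduction through peptides, and OTP and SIM1 are homeodomain and bHLH-PAS factors needed for its neurosecretory neurons. Distal open regions often act as enhancers, and they differ between tissues more than promoters do.

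The sequences below show what the regions look like. They are the central 200 bp of the cortex-only regions near HNMT, SLC25A36 and MARCKS and of the hypothalamus-only regions near FAM84A, MECOM and GTDC1, which were among the 6 regions of each set with the highest fold enrichment in the weaker animal, and of the hypothalamus-only regions near the markers OTP and SIM1. All are from the plus strand of Sscrofa11.1, at chr15:13820364-13820563 (HNMT), chr13:81684247-81684446 (SLC25A36), chr1:79742325-79742524 (MARCKS), chr3:123366512-123366711 (FAM84A), chr13:107891651-107891850 (MECOM), chr15:7921621-7921820 (GTDC1), chr2:86538427-86538626 (OTP) and chr1:67102886-67103085 (SIM1). Each region is named by the protein-coding gene with the nearest transcription start. That start was 645227 bp away for FAM84A, 182084 bp for SIM1 and 26965 bp for OTP. Capitals mark a match on either strand to 1 of 16 motifs searched, which are described with the motif shares.
HNMT: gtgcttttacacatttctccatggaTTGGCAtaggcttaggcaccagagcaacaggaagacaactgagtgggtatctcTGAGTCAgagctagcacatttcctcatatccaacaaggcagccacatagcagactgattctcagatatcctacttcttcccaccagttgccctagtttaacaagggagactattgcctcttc
SLC25A36: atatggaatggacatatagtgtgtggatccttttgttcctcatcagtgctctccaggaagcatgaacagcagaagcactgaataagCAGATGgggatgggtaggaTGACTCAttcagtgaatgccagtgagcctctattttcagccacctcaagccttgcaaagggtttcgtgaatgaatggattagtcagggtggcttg
MARCKS: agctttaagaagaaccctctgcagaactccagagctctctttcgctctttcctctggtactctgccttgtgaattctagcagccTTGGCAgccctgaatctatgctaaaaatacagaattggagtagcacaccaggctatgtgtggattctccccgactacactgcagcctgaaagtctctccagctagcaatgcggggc
FAM84A: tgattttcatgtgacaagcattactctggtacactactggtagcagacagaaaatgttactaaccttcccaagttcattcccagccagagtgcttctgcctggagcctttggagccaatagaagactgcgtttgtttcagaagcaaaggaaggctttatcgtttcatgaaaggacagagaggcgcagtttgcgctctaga
MECOM: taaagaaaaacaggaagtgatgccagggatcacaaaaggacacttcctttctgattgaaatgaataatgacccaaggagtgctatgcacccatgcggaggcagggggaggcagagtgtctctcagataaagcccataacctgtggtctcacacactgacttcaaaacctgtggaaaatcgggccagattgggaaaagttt
GTDC1: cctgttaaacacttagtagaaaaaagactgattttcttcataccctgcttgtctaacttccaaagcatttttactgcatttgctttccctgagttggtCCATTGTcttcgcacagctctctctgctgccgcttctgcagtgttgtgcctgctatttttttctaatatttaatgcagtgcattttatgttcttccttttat
OTP: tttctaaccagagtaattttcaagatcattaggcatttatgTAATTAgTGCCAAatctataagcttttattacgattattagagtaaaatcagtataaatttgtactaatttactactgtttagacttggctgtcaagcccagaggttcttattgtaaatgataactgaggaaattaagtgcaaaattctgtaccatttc
SIM1: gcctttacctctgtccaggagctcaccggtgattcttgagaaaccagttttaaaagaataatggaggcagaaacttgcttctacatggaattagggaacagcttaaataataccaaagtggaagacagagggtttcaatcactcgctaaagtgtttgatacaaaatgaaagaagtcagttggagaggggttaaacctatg
The AP-1 site, TGANTCA, the binding site of FOS and JUN dimers, stood in the windows of HNMT (as TGAGTCA) and SLC25A36 (as TGACTCA) and in none of the other 6 shown. The other 3 of the 6 strongest cortex-only regions, near NDUFV2, DCT and LHFPL2, and the regions of the cortex markers TBR1 and NEUROD6 described with the markers, had no AP-1 site in their central 200 bp either. The OTP window held the homeodomain core TAATTA next to an NFI half-site on the minus strand, and no searched motif was found in the FAM84A, MECOM and SIM1 windows.

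The libraries differed in length and in likeness before any set was formed. The cortex lists held 148722 peaks (P348) and 164080 peaks (P350), and the hypothalamus lists 105665 (P348) and 146884 (P350), within the span of 99960 to 217308 peaks over all 16 pig libraries. On the log2 scale the mean peak number was 0.33 higher in cortex (exact two-sided permutation test, p = 0.33, n = 2 libraries a tissue, the smallest p that 2 against 2 allows). The lists hold no read counts, so the depth of each library is unknown and the list length stands in its place. The shared bases of 2 lists divided by their joint bases (Jaccard index) were 0.406 between the cortex libraries but 0.272 between the hypothalamus libraries. The hypothalamus library of P350 was more like cortex P350 (0.288) and cortex P348 (0.283) than like the other hypothalamus library, and this order was the same with 105665 peaks taken from each list (0.339, 0.329 and 0.294). The hypothalamus library of P350 also had the largest share of peaks with a mean q-value above 0.05, 14.8% against 5.28% to 6.97% in the other 3. The hypothalamus library of P348 stood apart in base composition, with a median GC content of 56.4% per peak against 51.2% to 52.0% in the other 3. What either library contributed to the sets through these properties was not tested.

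**Figure D1:**
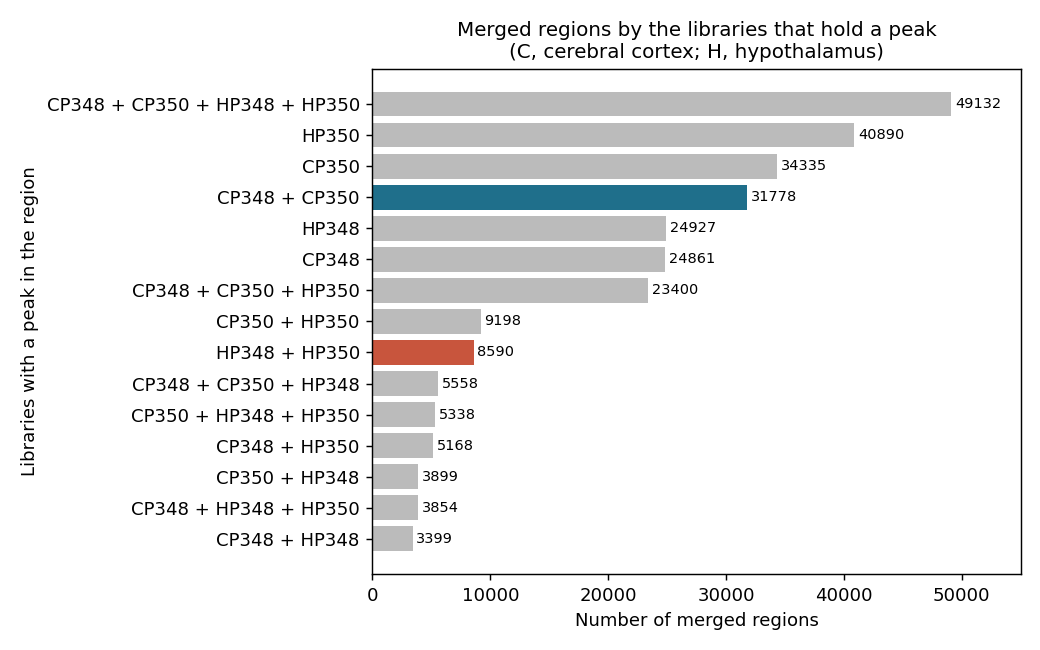
Number of merged regions (x axis) for each combination of libraries that held a peak (y axis; C, cerebral cortex; H, hypothalamus, followed by the animal). The cortex-only regions (blue, 31778) outnumber the hypothalamus-only regions (red, 8590), and the 23400 regions open in both cortex libraries and hypothalamus P350 exceed the 5558 open in both cortex libraries and hypothalamus P348.

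There were 3.70 cortex-only regions for each hypothalamus-only region. They made up 28.9% of the 109868 regions open in both cortex libraries, and the hypothalamus-only regions 12.8% of the 66914 regions open in both hypothalamus libraries. Within a single animal, without asking for the other, the excess was smaller, with 87733 against 44624 regions in P348 (1.97 to 1) and 77349 against 59921 in P350 (1.29 to 1). With the 105665 best peaks of each list by q-value, 20979 cortex-only and 11036 hypothalamus-only regions remained (1.90 to 1). On the log2 scale the ratio was 1.89. With a single list for the hypothalamus and both cortex lists still required, which favours the hypothalamus by construction, it was 0.69 for the list of P348 and -0.42 for that of P350.

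Cortex-only regions were more numerous on 19 of the 20 assembled chromosomes. The ratio ran from 2.12 on chromosome 11 and 2.17 on chromosome 8 to 15.4 on chromosome 12, where 1309 cortex-only regions stood against 85. Chromosome 12 was also the chromosome with the highest GC content, 47.7%, against 40.6% for chromosome 11 and 39.5% for chromosome 8. By the GC content of single regions, 13.7% were cortex-only under 40% GC, 14.8% at 40 to 50% and 8.93% at 50% or more. Hypothalamus-only were 1.12%, 2.55% and 3.78%. The part of GC content in the chromosome ratios was not tested. On chromosome Y only 2 cortex-only and 9 hypothalamus-only regions were found.

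Hypothalamus-only regions were wider, lay farther from genes and were more often mostly repeat than cortex-only regions. The median width was 548 bp (quartiles 335 to 916) for cortex-only and 745.5 bp (472 to 1049) for hypothalamus-only regions, against 1092 bp for regions open in all 4 libraries and 598 bp for all regions. Widths of single peaks differed far less between libraries, with medians of 464 and 474 bp in cortex and 504 and 493 bp in hypothalamus (mean difference -29.5 bp, exact two-sided permutation test, p = 0.33, n = 2). Within P348 the set medians were 365 and 423 bp, and within P350 376 and 446 bp. Lists of equal length gave 455 and 805 bp. A region made from 2 lists that must both reach it is longer than 1 peak, so the widths of the sets and of single peaks are different quantities.

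Both sets were poor in promoters. Of the cortex-only regions 4.13% (Wilson 95% interval 3.92 to 4.35) lay within 2 kb of a protein-coding transcription start site (TSS), and of the hypothalamus-only regions 2.68% (2.36 to 3.04), against 28.3% of the regions open in all 4 libraries and 7.87% of all regions. These intervals cover counting error only. The 1312 TSS proximal cortex-only regions belonged to 1220 genes, 51.6% of which also had a TSS proximal region open in all 4 libraries. The 230 TSS proximal hypothalamus-only regions belonged to 224 genes, 29.9% of which had one. Both shares were below the 79.5% of the 15715 genes with any TSS proximal region. A region of either set is by definition not open in all 4 libraries. Its gene needed another TSS proximal region to count, so part of that gap follows from the definition. Over whole lists the TSS proximal share was 12.3% and 11.3% in cortex and 15.2% and 11.6% in hypothalamus (mean difference -1.59 percentage points, exact two-sided permutation test, p = 0.667, n = 2), so the tissues overlapped. The shares of the sets were 4.39% and 3.93% with lists of equal length.

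Away from promoters the sets parted. Of the cortex-only regions 52.3% lay inside a gene and 42.0% between genes, and of the hypothalamus-only regions 38.2% and 57.7%. The median distance to the nearest coding TSS was 43822 bp for cortex-only and 106338 bp for hypothalamus-only regions, and 29.1% and 51.6% lay more than 100 kb away. With lists of equal length the gene share was 51.7% and 37.2% and the median distance 42103 and 112765 bp. In whole lists the gene share was 45.6% and 46.6% in cortex and 40.3% and 41.4% in hypothalamus, and the tissues did not overlap.

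**Figure D2:**
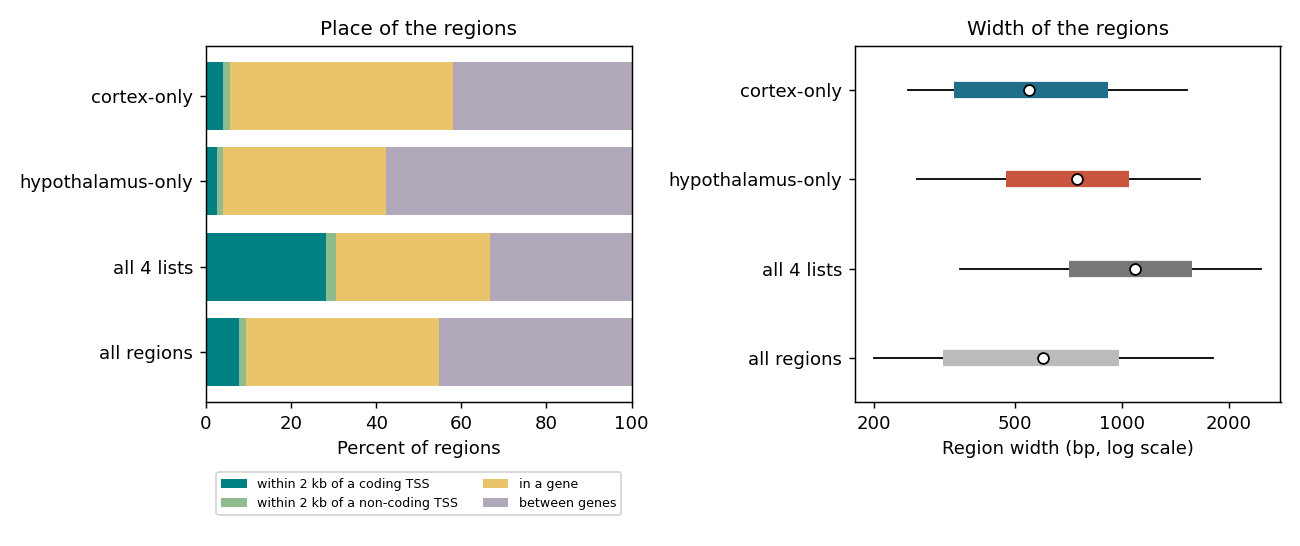
Left, percent of regions (x axis) by place relative to annotated genes for cortex-only, hypothalamus-only, all-4-list and all regions. Right, region width in bp on a log scale, with the median (white point), quartiles (thick bar) and the span from the 5th to the 95th percentile (thin line). Hypothalamus-only regions have the largest share between genes, 57.7%, and a median width of 745.5 bp against 548 bp for cortex-only regions.

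Base composition and repeats went with the sets. The median GC content was 48.5% in cortex-only, 52.6% in hypothalamus-only and 55.5% in all-4-list regions, against 41.9% for the assembly. Within P348 the medians were 49.5% and 54.0%, and within P350 49.0% and 49.5%, so the gap in GC was mostly that of P348. Regions in which at least 50% of the bases were soft-masked as repeats in the reference made up 1.75% of the cortex-only and 10.9% of the hypothalamus-only regions, against 2.46% of the regions open in all 4 libraries and 6.52% of all regions. The median masked share of a region differed little, 10.1% and 11.4% (9.48% and 9.41% within P348, 9.67% and 11.9% within P350). The share of mostly masked regions was higher on the hypothalamus side in both animals, 10.7% against 3.26% within P348 and 14.1% against 3.44% within P350. Whether repeats or GC content account for the difference in place was not tested.

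The other 6 pig tissues took no part in choosing the regions, and they overlapped the sets unequally. The cerebellum, the remaining brain tissue of the series, held a peak over 24.7% (P348) and 27.7% (P350) of the cortex-only regions and over 64.1% and 69.3% of the hypothalamus-only regions. The lung overlapped 34.1% and 34.6% of the cortex-only and 48.2% and 63.1% of the hypothalamus-only regions, and adipose 29.9% and 16.7% against 43.6% and 35.4%. In liver the shares were 20.2% and 24.0% against 21.8% and 39.1%. Skeletal muscle went the other way in both animals, with 27.8% and 23.1% of the cortex-only and 18.2% and 8.91% of the hypothalamus-only regions. The spleen was split, with 21.5% against 19.9% in P348 and 19.0% against 26.0% in P350. Over the 6 tissues the mean difference, cortex-only minus hypothalamus-only, was -12.9 percentage points and did not pass the test (two-sided exact permutation of signs, p = 0.156, n = 6 tissues, 5 of them negative). It was -2.87 points with P348 alone and -1.23 points with P350 alone defining both sets, and it turned to 5.46 and 7.14 points where the hypothalamus list of P348 or of P350 alone stood beside both cortex lists.

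In each class of base composition the cerebellum overlapped more of the hypothalamus-only than of the cortex-only regions. Over the whole sets the means of the 2 animals were 26.2% of the cortex-only and 66.7% of the hypothalamus-only regions. Under 40% GC they were 14.6% and 56.25%, with only 168 hypothalamus-only regions. Among regions of 40 to 50% GC, a cerebellum peak lay over 24.7% of the cortex-only and 68.7% of the hypothalamus-only regions as means of the 2 animals, and among regions of at least 50% GC over 29.8% and 66.0%. Cerebellum was the only other tissue with a peak in both animals for 22.2% of the hypothalamus-only and 7.09% of the cortex-only regions, against 10.3% of all regions. No other pig library held a peak over 24.3% of the cortex-only regions but over only 4.63% of the hypothalamus-only regions, against 17.1% of all regions. The cerebellum lists were the longest of the 16 pig lists, at 217308 and 207917 peaks, and the part of list length in these shares was not tested. With lists of equal length for cortex and hypothalamus the mean shares in cerebellum were 26.1% and 76.7%.

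**Figure D3:**
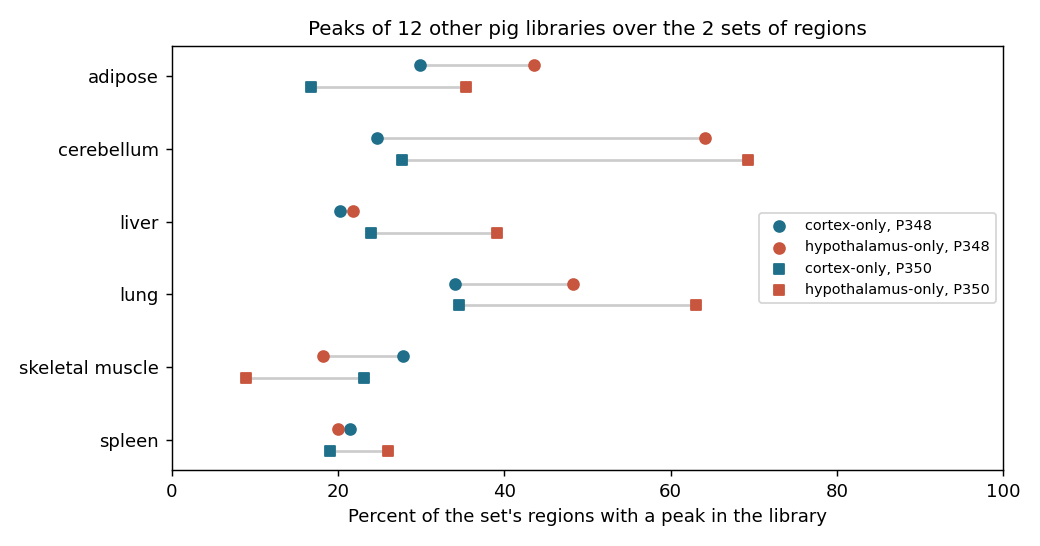
Percent of the cortex-only regions (blue) and of the hypothalamus-only regions (red) that hold a peak (x axis) in each of 12 libraries of 6 other pig tissues (circles, P348; squares, P350). The 2 sets lie farthest apart in cerebellum, with 24.7% and 27.7% against 64.1% and 69.3%, and only skeletal muscle has cortex-only above hypothalamus-only in both animals.

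The 4 marker genes were near open regions in both tissues, and they set the tissues apart unevenly. TBR1, a T-box factor of deep-layer projection neurons, had 8 regions nearest to it, 4 of them open in all 4 libraries, and 1 cortex-only region 49821 bp from its TSS (chr15:68258705-68258951, between genes, fold 3.72 in P348 and 3.53 in P350). In the TBR1 window, the gene with 10 kb on each side, peaks covered 32.8 and 43.2 bases per Mb of peak bases in cortex and 40.7 and 32.3 in hypothalamus. The tissues overlapped at TBR1. NEUROD6, a bHLH factor of upper and deep projection neurons, had 12 regions, 2 cortex-only and 1 hypothalamus-only, and 43.9 and 24.3 bases per Mb in cortex against 11.998 and 21.4 in hypothalamus. Its strongest cortex-only region, chr18:41723828-41724198, lay in an intron of CCDC129 with folds of 4.17 and 3.42 and no peak in any other pig library. Both cortex values of NEUROD6 were above both hypothalamus values, but a lone adipose library (43.4) reached the same level. With lists of equal length TBR1 had 1 cortex-only and 0 hypothalamus-only regions, and NEUROD6 had 2 and 1.

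OTP had 2 cortex-only and 1 hypothalamus-only region among 9, and 2 and 0 with lists of equal length. Its window values were 30.6 and 24.0 bases per Mb in cortex and 47.2 and 49.2 in hypothalamus. Its hypothalamus-only region was 1846 bp wide, lay in an intron of OTP (chr2:86537604-86539449, folds 3.30 and 2.67), and held a peak in 10 of the 12 libraries of other tissues. SIM1 was the marker with the clearest contrast, with 8 hypothalamus-only against 2 cortex-only regions among 55 (5 against 1 with lists of equal length). Peaks in its window covered 40.6 and 27.4 bases per Mb in cortex and 67.4 and 124 in hypothalamus, and the SIM1 region nearest its start that was hypothalamus-only lay 1806 bp from a coding TSS with folds of 2.37 and 2.32. The single animals gave 17 hypothalamus-only against 6 cortex-only regions in P348 and 27 against 6 in P350. The cerebellum (104 and 123) and the liver (107 and 96.7) covered the SIM1 window as much as the hypothalamus did. At OTP a library of adipose (63.9) lay above both hypothalamus libraries, so neither window was covered most in the hypothalamus alone.

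Each region was assigned to the protein-coding gene with the nearest TSS, which left 18520 genes with at least 1 region. A gene counted as leaning to a tissue when it had at least 3 more regions of that tissue's set. By this count 3145 genes leaned to the cortex (17.0% of 18520) and 189 to the hypothalamus (1.02%). These counts moved with the lists used, to 5835 and 626 genes from P348 alone, 4331 and 1369 from P350 alone, and 1676 and 0 from peaks with a q-value under 0.0001. The rest were undecided, and 7572 genes had no region of either set. With lists of equal length 1696 genes leaned to the cortex and 500 to the hypothalamus. Of the cortex-leaning genes 1585 were common to both counts, 50.4% of the first and 93.5% of the second, and of the hypothalamus-leaning genes 160, or 84.7% and 32.0%. The count favours genes with many regions. It called 2.52% of genes with 1 to 9 regions and 65.6% of genes with 60 or more toward the cortex, while the share of their regions that was cortex-only was 13.0% and 9.71%.

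The genes with the largest lean to the cortex were genes with 126 to 447 regions nearest to them, many of them known from neurons. RBFOX1, a neuronal splicing factor, had 71 cortex-only and 17 hypothalamus-only regions among 447. OPCML and NTM, adhesion proteins of the IgLON family, had 46 against 5 and 45 against 6 regions. DLG2, a postsynaptic scaffold protein, had 41 against 1, and NRXN3, a presynaptic adhesion protein, had 41 against 8. CELF2, an RNA-binding protein, had 44 against 4. KCNMA1, the pore of a calcium-activated potassium channel, had 34 against 5, and PDE10A, a cyclic nucleotide phosphodiesterase, had 30 against 2. KAZN, a protein of cell junctions, had 32 against 0, and NAV3, of the neuron navigator family, had 37 against 7. All 10 kept more cortex-only than hypothalamus-only regions with lists of equal length, from 18 against 17 for NAV3 to 32 against 4 for DLG2, and within each animal. They were named for this excess in the same peaks, so the kept direction partly follows from that choice.

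The covered bases of the gene windows do not use the definition of the sets, but they were summed from the same peak lists. They are therefore another description and not an independent check. OPCML, CELF2 and KAZN were named for their excess of cortex-only regions, so higher cortex values there partly follow from that choice. Over 19174 genes with peak bases in the window, both cortex libraries lay above both hypothalamus libraries for 29.4% and the reverse held for 14.1%. OPCML had 975 and 924 bases per Mb of peak bases in cortex and 650 and 579 in hypothalamus. CELF2 had 387 and 402 against 275 and 213, and KAZN 535 and 463 against 284 and 286. The tissues did not overlap at these 3 genes. RBFOX1 had 1332 and 1232 bases per Mb in cortex and 1544 and 1038 in hypothalamus, so its window overlapped between the tissues in spite of its 71 cortex-only regions. DLG2 overlapped too, with 734 and 912 against 433 and 774. Among cortex-leaning genes the largest differences in window bases were at OPCML, PHACTR1 and FRMD4A. PHACTR1, a regulator of actin and protein phosphatase 1, had 533 and 581 bases per Mb in cortex against 258 and 297 in hypothalamus, with 25 cortex-only regions and 0 hypothalamus-only. FRMD4A, a scaffold protein of cell polarity, had 635 and 597 against 290 and 452, with 20 regions against 0.

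The genes with the largest lean to the hypothalamus had 112 to 271 regions nearest to them. VSTM2A, which encodes a secreted immunoglobulin-domain protein, had 28 hypothalamus-only and 13 cortex-only regions among 235. KCTD3 had 25 against 12, COBL, an actin nucleator, 23 against 12, and MRPL39, a protein of the mitochondrial ribosome, 18 against 6. FSCB, known from the sperm tail, had 14 against 0 among 112, and SI, the intestinal sucrase-isomaltase, 14 against 4. GBE1, the glycogen branching enzyme, had 15 against 4, and PCDH20, a protocadherin, 12 against 1. SDK1, a synaptic adhesion protein, had 15 against 4 with 274 and 229 bases per Mb in cortex and 718 and 381 in hypothalamus. ADARB2, an RNA-binding protein of inhibitory neurons, had 14 against 3 with 371 and 320 against 629 and 387. At FSCB the window gave 2.42 and 14.6 in cortex and 42.4 and 46.5 in hypothalamus. MRPL39 went the other way in its window, with 21.7 and 15.7 in cortex and 9.49 and 15.5 in hypothalamus. The KCTD3 window overlapped between the tissues, with 42.0 and 61.0 in cortex and 49.2 and 46.3 in hypothalamus. The other genes with the largest window differences toward the hypothalamus were TENM2, with 953 and 967 against 1225 and 1322, and ROBO2, the axon guidance receptor, with 211 and 225 against 320 and 665. TENM2, a teneurin adhesion protein, had 7 cortex-only and 4 hypothalamus-only regions, so by region number it leaned to the cortex, but with lists of equal length it had 4 against 10.

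**Figure D4:**
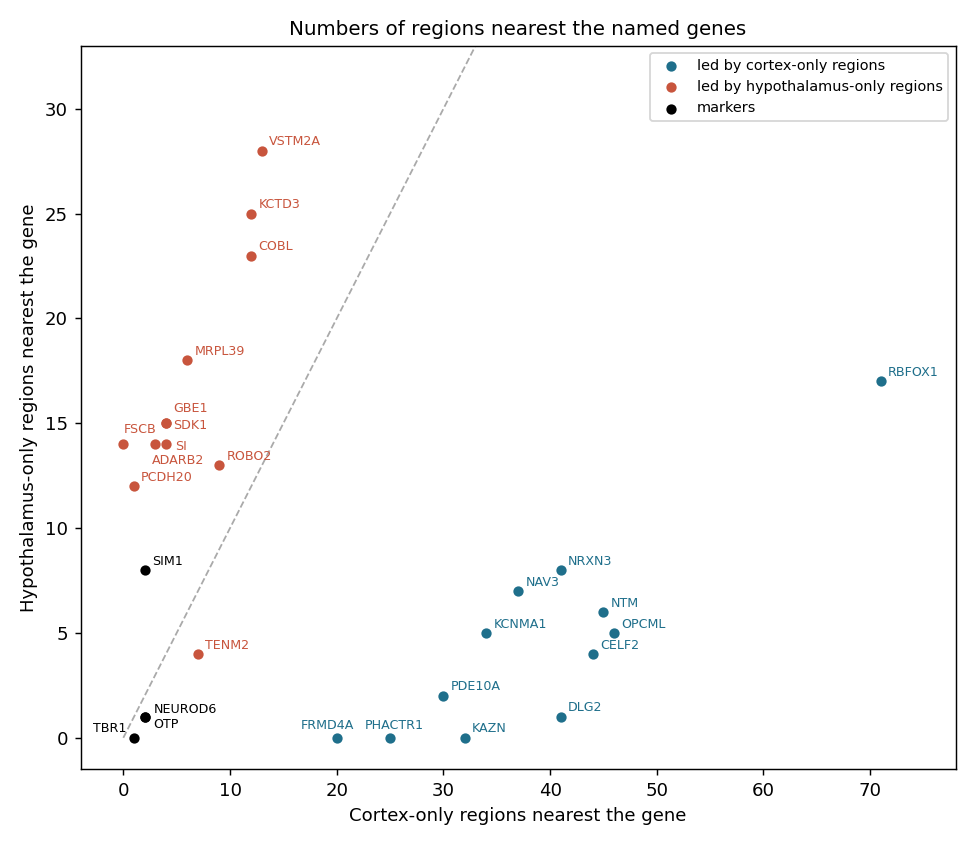
Number of cortex-only regions (x axis) and of hypothalamus-only regions (y axis) nearest to the genes with the largest differences in region number or window bases and to the 4 markers; the dashed line marks equal numbers. RBFOX1 lies at 71 and 17 and VSTM2A at 13 and 28, and TENM2, named for its window bases, lies below the line at 7 and 4.

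The strongest cortex-only regions had higher folds than the strongest hypothalamus-only regions, but they were drawn from a larger set (31778 against 8590 regions). Over whole lists the highest fold of a peak was 25.3 (P348) and 26.6 (P350) in cortex and 30.7 and 27.4 in hypothalamus. The highest weaker-animal fold of the cortex-only set was that of chr15:13820269-13820659, 52163 bp from a TSS of HNMT, which inactivates histamine, with folds of 9.56 and 10.4. The region at chr1:79742243-79742607, 47189 bp from MARCKS, a protein kinase C substrate of neurons, had folds of 9.52 and 9.45 and no peak in any of the 12 other libraries. A region in an intron of DCT, chr11:63609081-63609524, had 8.10 and 8.48. In the hypothalamus-only set the highest was chr3:123366184-123367040, 645227 bp from FAM84A, with 5.60 and 5.65 and peaks in 7 other libraries. A region in an intron of MECOM, a zinc finger transcription factor, had 4.85 and 4.83 (chr13:107891624-107891877), and one in an intron of GTDC1 had 4.51 and 5.99 with no peak elsewhere (chr15:7921596-7921845). Over the whole sets the median folds were 3.28 (P348) and 3.23 (P350) in cortex-only and 3.15 and 2.78 in hypothalamus-only regions, against 3.92 to 4.19 over the 4 libraries in regions open in all 4.

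At promoters, the strongest cortex-only regions lay at RGS5, ZNF304 and RBFOX2. The region over a TSS of RGS5, a signalling regulator of pericytes, spanned chr4:87286269-87287367 with folds of 7.18 and 7.71. That of RBFOX2, a splicing factor, had 6.69 and 7.88 (chr5:11696390-11697119), and STXBP5L, a regulator of synaptic vesicle release, had 6.09 and 7.40 (chr13:139490000-139491505). SLA-DOB and SLA-DOA, pig class II histocompatibility genes, had 6.66 and 6.28 and 6.46 and 5.78. The strongest hypothalamus-only promoter regions were lower, with 3.77 and 4.54 at AHNAK, 5.64 and 3.58 at TLX2, a homeobox gene, and 4.14 and 3.47 at MYO3A, a myosin. Both the AHNAK and the MYO3A region held a peak in 10 of the 12 other libraries, and the TLX2 region in 3. The cortex-only promoter regions were shared too, with 11 libraries at ZNF304, 8 at STXBP5L, 7 at SLA-DOB and SLA-DOA, 5 at RBFOX2 and 3 at RGS5. No other library held a peak over the cortex-only region at SORBS2 or the hypothalamus-only region at RASAL2.

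The gene lists of known cell types and tissues were described by their counts beside all genes. Of 296 listed genes in 14 lists 286 had a region, and in 13 of the 14 lists more genes leaned to the cortex than to the hypothalamus, as over all genes. Among 22 transcription factors of cortical projection neurons, 15 leaned to the cortex and 1 to the hypothalamus, with a median difference of 4 regions against 0 over all genes. These factors had a median of 47.5 regions each, against 6 over all genes, and of genes with 30 to 59 regions 56.8% leaned to the cortex. Of their 1334 regions 11.7% were cortex-only and 3.45% hypothalamus-only, against 11.6% and 3.13% of all regions. MEF2C, an activity-dependent factor of excitatory neurons, had 18 cortex-only and 3 hypothalamus-only regions, with 149 and 192 bases per Mb in cortex and 77.6 and 59.7 in hypothalamus. CUX1, an upper-layer factor, had 14 against 0, and SOX5, a deep-layer factor, 20 against 6. BCL11B, which specifies corticospinal neurons, had 19 against 8 regions but covered more of its window in hypothalamus, 147 and 119 against 57.7 and 94.5, and with lists of equal length BCL11B turned to 10 against 14 regions.

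Of the regions nearest to 20 genes of excitatory synapses and layers, 14.7% of 1232 were cortex-only. Among these genes 11 (55.0%) leaned to the cortex and 0 to the hypothalamus, against 17.0% and 1.02% of all genes, but they had a median of 52 regions each, and 56.8% of all genes with 30 to 59 regions leaned to the cortex. GRIN2A and GRIN2B, subunits of the NMDA receptor, had 23 against 5 and 19 against 6 regions. SYT1, the calcium sensor of vesicle release, had 20 against 2, with 380 and 447 bases per Mb in cortex and 201 and 277 in hypothalamus. Of the 797 regions nearest to 20 inhibitory neuron genes, 8.53% were cortex-only and 5.02% hypothalamus-only, against 11.6% and 3.13% of all regions. Among these genes 4 (20.0%) leaned to the cortex and 2 (10.0%) to the hypothalamus. On the cortex side were MAF with 20 against 6, SOX6 with 9 against 0 and ERBB4 with 4 against 0. ERBB4 lost its lean with lists of equal length (3 against 1), and its window had 108 and 195 bases per Mb in cortex and 125 and 249 in hypothalamus.

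The hypothalamic transcription factors were the list with the lowest cortex-only share outside the HOX genes, 6.12% of 670 regions, and 3.73% were hypothalamus-only. Of 25 factors with a region, 4 leaned to the cortex and 3 to the hypothalamus, and the windows of 7 had both hypothalamus libraries above both cortex libraries while 1 had the reverse, against 14.1% and 29.4% of all genes. SIM1 led toward the hypothalamus. TBX3, a factor of the arcuate nucleus, had 6 cortex-only against 1 hypothalamus-only region, FEZF1, of the ventromedial nucleus, 5 against 1, and POU3F2, needed for magnocellular neurons, 5 against 2. Lists of equal length turned TBX3 to 3 against 5 and FEZF1 to 0 against 5, and left POU3F2 at 2 against 2. The summed window bases of the list were 672 and 693 per Mb in cortex and 1095 (P348) and 783 (P350) in hypothalamus. Among 24 hypothalamic neuropeptide and receptor genes 6 (25.0%) leaned to the cortex and 0 to the hypothalamus, against 17.0% and 1.02% of all genes. Of their 508 regions 11.024% were cortex-only and 5.315% hypothalamus-only, against 11.6% and 3.13% of all regions. Both hypothalamus libraries lay above both cortex libraries in the windows of 8 of these genes, and the reverse held for 6. ESR1, the estrogen receptor, had 10 cortex-only and 6 hypothalamus-only regions but 126 and 179 bases per Mb in cortex against 267 and 267 in hypothalamus, and 6 against 7 regions with lists of equal length. NPY, the appetite-stimulating peptide, had 7 against 3 regions, which became 3 against 2 with lists of equal length, and its window held 12.6 and 0 bases per Mb in cortex and 36.0 and 25.2 in hypothalamus. PDYN, which encodes dynorphin, went to the cortex on both measures, with 4 against 0 regions and 16.2 and 20.5 against 0 and 2.44 bases per Mb.

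Lists of the other cells that either dissection can hold were read against the 17.0% of all genes that leaned to the cortex and the 1.02% that leaned to the hypothalamus. Of genes with 10 to 29 regions, however, 32.6% leaned to the cortex. Astrocyte, endothelial and mural, ependymal, and oligodendrocyte genes had medians of 22, 15.5, 21.5 and 14.5 regions. Of their regions 10.4%, 10.4%, 11.4% and 7.27% were cortex-only, against 11.6% of all regions. Of 20 astrocyte genes 7 (35.0%) leaned to the cortex and 0 to the hypothalamus, with SOX9, a glial factor, at 20 regions against 1, NFIA at 13 against 3 and SLC1A3, the glutamate transporter, at 8 against 1. Of 20 oligodendrocyte genes 4 (20.0%) and 0 leaned, with MBP, a myelin protein, at 7 against 1 (4 against 3 with lists of equal length), and the summed window bases of this list were 1073 and 1221 per Mb in cortex and 1275 and 1223 in hypothalamus. Of 19 microglia genes 5 (26.3%) and 1 leaned, and 15.7% of the 383 regions of the list were cortex-only. IRF8 had 16 against 0 and PTPRC 3 against 0 (1 against 0 with lists of equal length), whereas RUNX1 had 8 cortex-only and 13 hypothalamus-only regions. Of 20 endothelial and mural genes 8 (40.0%) and 0 leaned, with PECAM1 at 5 against 0 and CDH5 at 11 against 4, which became 6 against 7 with lists of equal length. Of 20 ependymal, tanycyte and choroid plexus genes 6 and 1 leaned, with RFX3 at 9 against 4 (5 against 3 with lists of equal length). The 12 pituitary genes gave 3 (25.0%) and 0, with summed window bases of 131 and 113 per Mb in cortex and 177 and 109 in hypothalamus. The 10 thalamic genes gave 3 and 0, with TCF7L2 at 13 against 0, RORA at 25 against 6 and LEF1 at 3 against 5. Ribosomal protein genes, used as a reference for genes open everywhere, gave 1 and 0 of 19. The part of cell composition in the sets was not tested.

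HOX genes, which pattern the trunk and hindbrain and are silent in the forebrain, set the 2 hypothalamus libraries apart. None of 35 HOX genes with a region leaned to either tissue, but the summed window bases were 346 and 373 per Mb in cortex, 1087 in hypothalamus P348 and 425 in hypothalamus P350. HOX genes lie close together in clusters, so their windows overlap and a peak can count for several genes. Peaks covered 11.2% of the HOXA cluster in hypothalamus P348 and 4.44% in hypothalamus P350, against 3.21% and 3.33% in cortex. In the HOXD cluster the covered shares were 12.5% and 9.30% in hypothalamus and 6.04% and 9.05% in cortex. The HOXC shares overlapped, with 5.36% and 4.55% in hypothalamus and 3.19% and 5.79% in cortex, and at HOXB hypothalamus P350 (0.311%) lay below both cortex libraries (1.01% and 0.323%) and hypothalamus P348 (3.98%) above them. The cerebellum libraries also differed between animals, with 1.98% in P348 and 9.88% in P350 at HOXA and 1.04% and 6.19% at HOXB. The windows of 10 of the 35 HOX genes, which are not separate, had both hypothalamus libraries above both cortex libraries, against 14.1% of all genes. For the list as a whole most of the hypothalamus excess was in P348.

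Short motifs were counted in the central 200 bp of each region on both strands, where N stands for any base. The merged centre need not be the site of strongest cutting, and overlapping motifs were each counted. Of 16 motifs 10 were more frequent in cortex-only than in hypothalamus-only regions, and all 10 kept that direction within both animals. The sets within an animal take in the peaks of the main sets, so such agreement is partly built in. The AP-1 site, TGANTCA, differed most in percentage points, whereas rarer motifs such as the cyclic AMP response element (0.214% and 0.0698%) and the MEF2 core differed by a larger ratio. It was in 12.7% of the cortex-only and 5.36% of the hypothalamus-only regions, 5.07% of the regions open in all 4 libraries and 7.80% of all regions. Within P348 its shares were 10.6% and 5.50%, and within P350 11.6% and 6.46%. The AP-1 gap was there in each class of base composition, 15.6% against 7.14% under 40% GC, 14.5% against 6.99% at 40 to 50% GC and 10.1% against 4.47% at 50% GC or more.

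Smaller gaps were found for motifs of other families. The NFI half-site TTGGCA, bound by factors such as NFIA and NFIB, was in 15.2% of the cortex-only and 11.7% of the hypothalamus-only regions, against 12.8% of all regions. The E-box CAGATG, bound by bHLH factors of the NEUROD class, was in 20.0% and 16.9%, against 17.4% of all regions, whereas the E-box CAGCTG, of the ASCL class, was in 15.5% and 16.5% and changed direction between P348 and P350. The POU octamer ATGCAAAT was in 1.52% and 0.733%, and the MEF2 core TATTTATAG in 0.362% and 0.128%. The SOX site ACAATGG was less frequent in cortex-only regions, 1.99% against 3.12%, with 2.94% over all regions, and this held within both animals. The homeodomain core TAATTA was in 4.48% and 3.21% of the sets, but among regions under 40% GC the shares were 11.4% and 14.3% and at 40 to 50% GC 5.38% and 5.90%, the reverse order in both classes, and only at 50% GC or more, with 2.26% and 1.51%, was the order that of the sets. A match of letters is a description and does not show that a factor was bound.

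**Figure D5:**
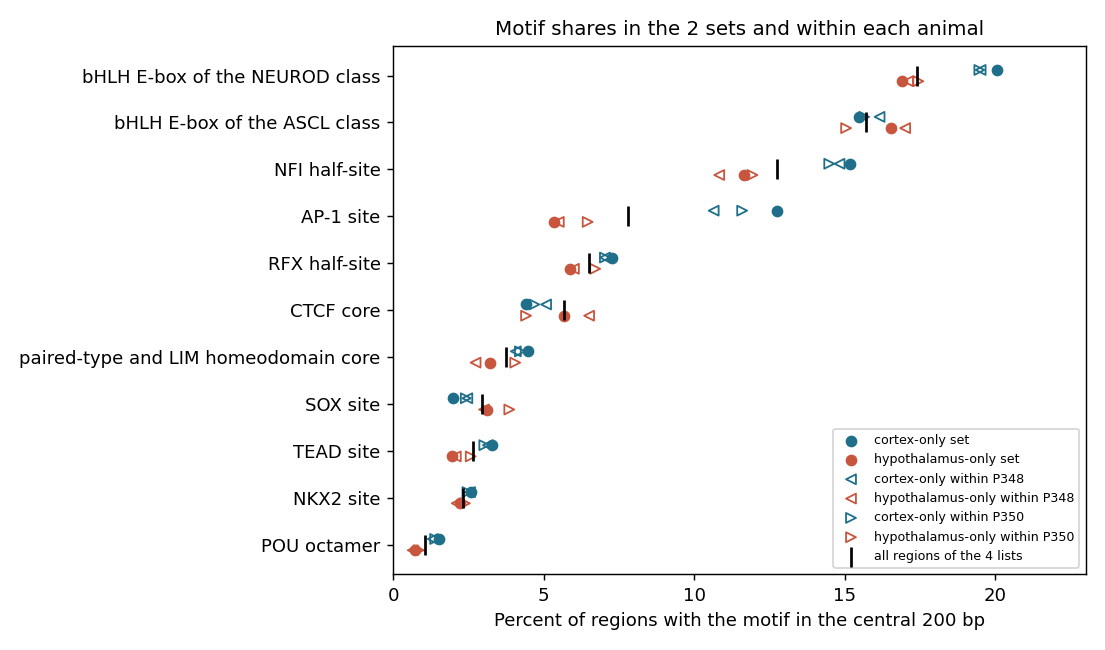
Percent of regions with each motif in the central 200 bp (x axis) for motifs found in over 1% of all regions (y axis), for the cortex-only (blue) and hypothalamus-only (red) sets (filled circles), for the same sets made within P348 or P350 alone (open triangles), and for all regions (black bars). The AP-1 site lies at 12.7% and 5.36% in the sets, the widest gap in percentage points of the motifs drawn.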

How the data were processed

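Peaks of 4 ATAC-seq libraries were compared, 1 for each tissue of pigs P348 and P350, with the 12 other pig libraries as an outside readout. Nuclei were cryopreserved from fresh tissue. The submitters' processing notes name Trim Galore 0.4.5, BWA 0.7.17, SAMtools 1.10 and Picard 2.18.17, which the methods describe for ChIP-seq reads, with removal of duplicates and of alignments of low mapping quality. A shift of read ends for ATAC-seq is not given in the sources used here. The authors called peaks for each library on its own with MACS2 in broad mode at a q-value limit of 0.05. Column 7 of the deposited lists is the fold enrichment over local background and column 9 the −log10 q-value, both averages over a broad peak, so some peaks have a mean q-value above 0.05. The lists give no depth, so list length was not adjusted for it, and a deeper library can have more and weaker peaks.

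Groups came from the labels. The labels name the same animals for both tissues. The main library tests did not use this pairing, which entered as an alternative. The Jaccard index between tissues was 0.00727 higher within than between animals. Peaks sharing at least 1 bp were merged. All 270 sequence names of the pig lists were matched to Sscrofa11.1, annotated here with NCBI release 106 (20648 protein-coding genes, 47441 coding TSS positions), whereas the study used another annotation. A region within 2 kb of a coding TSS was TSS proximal, then near a non-coding TSS, genic or intergenic. Gene windows were gene bodies with 10 kb on each side, and a gene was called at a difference of 3 regions. Motifs and GC content were read from the reference, and repeats from its soft-masking. Tests were exact permutations with a threshold of 0.05, and intervals Wilson at 95%. Python 3.11.15, pandas 2.3.3 and NumPy 2.4.6 were used, and the steps were tested on simulated lists with known sets.

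Named genes were the 4 markers, the 10 genes in each direction with the largest difference in region number, up to 4 genes of each list with the largest difference, the 6 strongest regions and 8 strongest TSS proximal regions of each set, and the 3 called genes in each direction with the largest difference in window bases. The members and lists were chosen with earlier results of these data known. Alternatives were q-value limits of 0.01 and 0.0001, lists of equal length, autosomes, other merging, cover and distance limits, pairing and leaving out an animal. Cattle lists were not used here.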

Additional observations from a re-analysis of the deposited data

Results flagged for a closer look

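The difference between the sets in overlap with other tissues went in opposite directions in skeletal muscle and in 4 other tissues, which is why it is given here. In both muscle libraries more cortex-only than hypothalamus-only regions held a peak, by 9.61 and 14.2 percentage points, whereas in both libraries of adipose, cerebellum, liver and lung the cortex-only share was the lower one. The mean difference in muscle exceeded that in cerebellum by 52.4, that in lung by 33.2, that in adipose by 28.2 and that in liver by 20.2 percentage points. The difference between tissues was not tested. The muscle lists held 125828 and 99960 peaks, and in regions of 40 to 50% GC the muscle shares were 19.9% and 5.46%, in the same direction.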

How the results depend on the processing

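Of 91 values under alternatives, 50 were counted as kept, 34 as moved and 7 as turned. Kept values held their direction and stayed within the spread or, for tests, on the same side of the threshold. The library tests had to stay on that side, because no p could fall below 0.33, or 0.5 with pairs. The other-tissue difference counted as kept where it shrank from -12.9 to -1.23 points without P348. Gene counts followed a rule other than that spread, as 90 hypothalamus genes against 189 counted as moved with a spread of 525. The 50 therefore say little about stability. At q-values under 0.01 the log2 ratio of set numbers was 3.29, the width difference -153 bp, the TSS proximal difference 0.75 percentage points and 38 genes leaned to the hypothalamus. Under 0.0001 these were 5.32, -31 bp, -6.14 points (a change of direction) and 0 genes, with 1676 leaning to the cortex. With lists of equal length they were 0.93, -350 bp and 0.46 points, with 1696 genes for cortex and 500 for hypothalamus, and the TSS proximal difference of whole lists turned to 0.49 points. Merging peaks closer than 500 bp gave -216 bp, and a cover of 50% gave -179 bp and 90 hypothalamus genes. A TSS distance of 500 bp gave 0.22 points. A nearest TSS within 100 kb left 58 hypothalamus genes, and a difference of 5 regions 1417 cortex and 69 hypothalamus genes.

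Leaving out an animal gave log2 ratios of 0.37 to 0.98, width differences of -70 to -58 bp, TSS differences of 0.86 to 1.59 points, 4331 to 5835 cortex genes, 626 to 1369 hypothalamus genes and other-tissue differences of -2.87 to -1.23 points. Alternatives chosen after seeing the data let 1 list stand for the hypothalamus. With P348 the log2 ratio was 0.69, the width difference turned to 168 bp, the other-tissue difference to 5.46 points, and 966 genes leaned to the hypothalamus. With P350 they were -0.42, 153 bp and 7.14 points, the TSS difference was 2.59 points, and 1733 and 2194 genes leaned to cortex and hypothalamus. By construction a single list needs no second one beside it. Regions of 40 to 50% GC gave a width difference of -353 bp. With a replicate block, that is, paired within animals, the library differences were 0.33 in log2 peak number, -29.5 bp and -1.59 points, each with an exact sign-flip permutation p of 0.5, the smallest that 2 pairs allow. Pairing could change no call, because that p is above the threshold. Each other cause was not tested.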

Other observations

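Windows of 1 Mb that were dense in either set were chosen after their values were seen. The window at 7 to 8 Mb of chromosome 12, with SLC39A11, CDC42EP4 and SDK2, held 44 cortex-only and 0 hypothalamus-only regions, and that at 9 to 10 Mb of chromosome 7, with PHACTR1, held 41 and 0. On the hypothalamus side, the window at 138 to 139 Mb of chromosome 9, near VSTM2A, held 27 against 13, and that at 77 to 78 Mb of chromosome 16, with IRX1, a homeobox gene, 19 against 6.

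These results rest on 2 animals, on peak calls without read depth and on whole tissue. No exact test of 2 libraries against 2 can fall below 0.33.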
